A study of Mus musculus with 6 samples.

Results

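The genes described here are those whose products take up antisense oligonucleotides into liver cells, sort them inside the cell, cut the RNA they pair with, or break down the pieces. They were taken from the deposited liver table by symbol: *Stab1*, *Stab2*, *Asgr1*, *Asgr2*, *Egfr*, *M6pr*, *Rnaseh1*, *Rnaseh2a*, *Xrn1* and *Xrn2*. All 10 were present among the 21297 genes of the table, and all 10 entered the tests, which covered 11565 genes averaging 1 CPM or more over the libraries (CPM are counts scaled to a common total, so that a value is the share of a library that a gene takes). RNA-seq was done on the livers of 6 male C57BL/6J mice on a chow diet that were 8 weeks old at the start, 3 given a control oligonucleotide (CON ASO) and 3 given an oligonucleotide directed against *Mmab* (MMAB ASO). Every mouse received 50 mg/kg by intraperitoneal injection once a week over 6 weeks, and livers were taken 48 h after the last dose. Both groups therefore carried an oligonucleotide load, no liver without one was analysed here, and a change that both oligonucleotides cause cannot be seen in this comparison. The overnight fast that the methods give as the general rule would apply to both groups. Samples are numbered 1, 2 and 4 in each group, and RNA came from liver tissue, so that levels are averages over all its cell types.

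An antisense oligonucleotide of the RNase H type pairs with its target RNA, and RNase H1 cuts the RNA strand of the duplex while the oligonucleotide is released. The cut ends are then degraded by exonucleases, XRN1 in the cytoplasm and XRN2 in the nucleus. Oligonucleotides with a phosphorothioate backbone are polyanions that bind scavenger receptors. In liver, a large part of an unconjugated dose is known to collect in non-parenchymal cells, with the stabilins of the sinusoidal endothelium as major receptors, whereas the asialoglycoprotein receptor gives entry to hepatocytes and is the receptor used by GalNAc-conjugated drugs. The backbone and conjugation of the oligonucleotides given here are not given in the sources used here.

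The targeted mRNA was measured first. *Mmab*, which encodes an enzyme that makes the cobalamin cofactor of the mitochondrial methylmalonyl-CoA mutase, was at 6.31, 5.30 and 6.83 CPM in the CON ASO group (replicates 1, 2 and 4) and at 1.87, 2.69 and 1.80 CPM in the MMAB ASO group (replicates 1, 2 and 4). All 3 MMAB ASO livers were below the lowest CON ASO liver, with a log2 fold change of -1.55 (standard error (SE) 0.21 in limma, adjusted p = 0.00225 with Benjamini-Hochberg adjustment).

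The libraries were alike in depth, at an estimated 44.7 to 55.4 M reads. Of the 11565 tested genes, 473 passed an adjusted p of 0.05 in limma (4.09%), 216 of them higher in MMAB ASO livers (1.87%) and 257 lower. The share of these calls that were higher moved from 45.7% to 34.1% with median-ratio scaling and to 65.7% with scaling to the protein-coding sum. Leaving out CON ASO replicate 4 gave a count of 162, leaving out MMAB ASO replicate 1 gave 309, and leaving out MMAB ASO replicate 4 gave 157. The values of the groups did not overlap for 2629 genes (22.7%). The labelled tissue was checked with 15 hepatocyte markers, whose summed level was 55290 to 78309 CPM across the 6 libraries with none of them at 0. Protein-coding genes held 46.2% to 57.0% of the full total to which each library was scaled, with CON ASO replicate 1 the highest. The genes of the table did not make up that whole total, and summed to 635147 to 682884 CPM.

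Among the 10 genes, both stabilins were higher in MMAB ASO livers, and the other 8 genes did not pass the test. *Stab1* was 1.96-fold and *Stab2* 1.79-fold higher. Against the 1.87% of all tested genes called higher, these were 2 of 10. None was called lower, against 257 of all 11565 tested genes. The groups did not overlap for 3 of 10 (*Stab1*, *Stab2* and *Asgr2*), against 22.7% of all tested genes. An unadjusted p under 0.05 was reached by 3 of the 10, the same 3, and by 2055 of all 11565 tested genes (17.8%). The median log2 fold change of the set was 0.03, as was the median over all tested genes. The 8 other genes had log2 fold changes from -0.44 to 0.13.

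**Figure D1:**
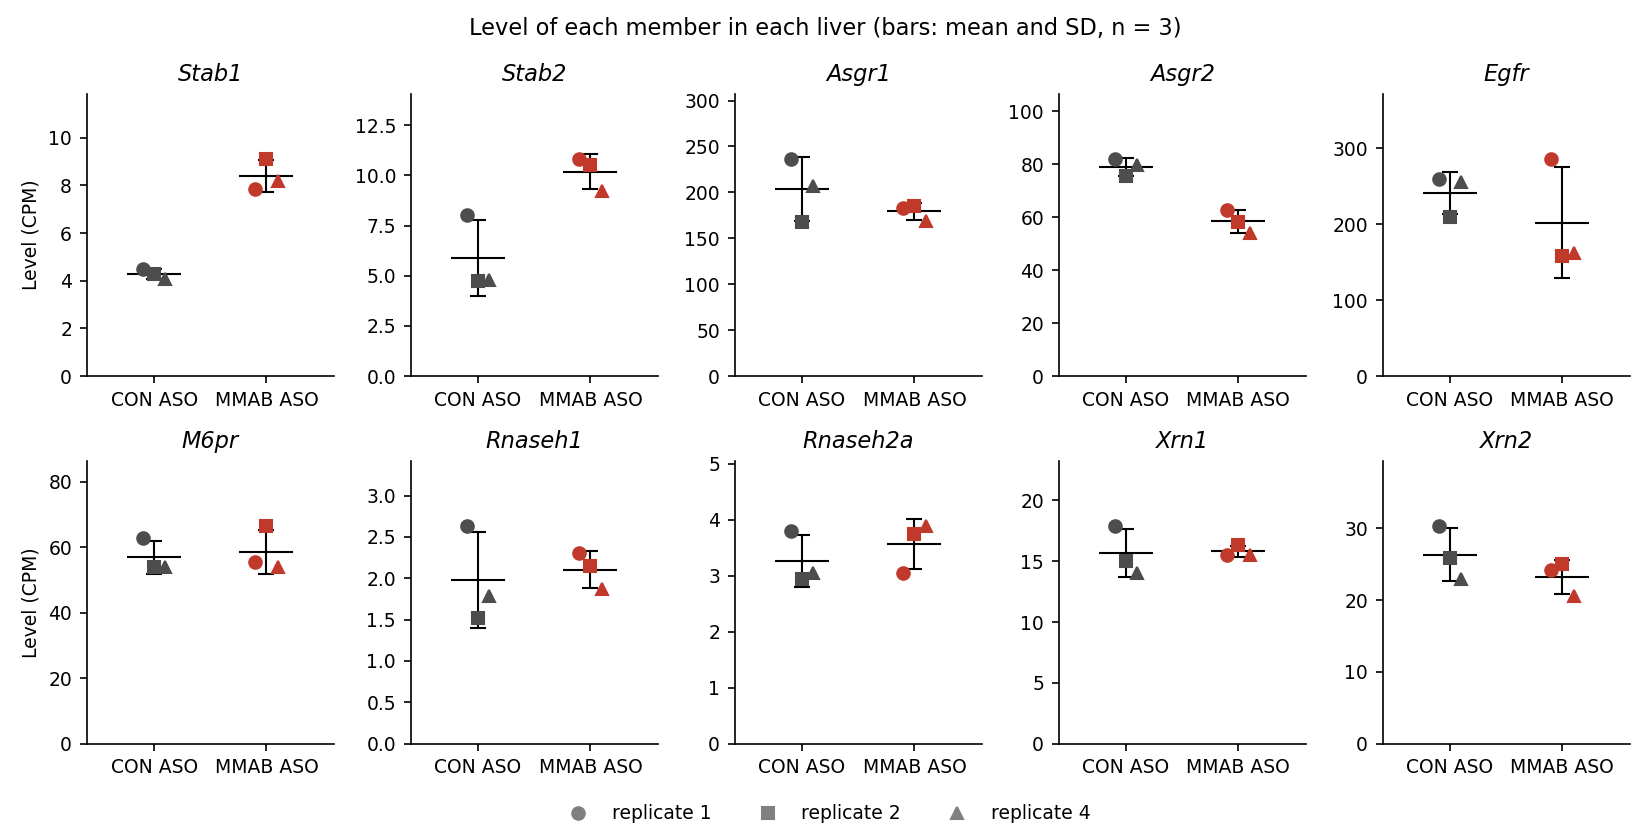
Level of each of the 10 genes in each liver, in CPM on a linear axis that starts at 0, with CON ASO livers in grey and MMAB ASO livers in red. Bars are the mean and SD of 3 livers, and marker shapes give the replicate number. The MMAB ASO livers lie above every CON ASO liver for *Stab1* and *Stab2* and below every one for *Asgr2*, and the groups overlap for the other 7 genes.

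The levels of the 10 genes spanned more than 2 orders of magnitude once divided by the length of their exons. In CON ASO livers the highest was *Asgr1* at 128 CPM per kb, followed by *Asgr2* at 50.2, *Egfr* at 21.3, *M6pr* at 13.6 and *Xrn2* at 6.62 CPM per kb, and none of these neighbours overlapped between livers. The next 4 could not be placed in an order, since the values of each overlapped those of its neighbour: *Rnaseh2a* at 0.931, *Xrn1* at 0.842, *Rnaseh1* at 0.765 and *Stab2* at 0.669 CPM per kb. *Stab1* was lowest at 0.416 CPM per kb, with all 3 CON ASO livers below the lowest value of *Stab2*. In MMAB ASO livers *Stab2* had a mean of 1.16 CPM per kb and *Stab1* one of 0.815, and *Stab2* remained above *Stab1* with a ratio of 1.43, against 1.61 in CON ASO livers. These are levels in whole liver, in which cell types that hold less of the RNA weigh less. The length used joins all annotated exons of a gene, so the order depends on the annotation.

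*Stab1* and *Stab2* encode the large endocytic scavenger receptors stabilin-1 and stabilin-2. Both are expressed by the sinusoidal endothelium, stabilin-2 being the main clearance receptor for hyaluronan, and stabilin-1 is also found on some macrophages. On GRCm38, *Stab1* lies on chromosome 14 from 31139013 to 31168641 and *Stab2* on chromosome 10 from 86841198 to 87008025, both on the minus strand. The 300 bases around their RefSeq starts (GRCm38.p6, 250 before the start and 50 from it on, written in the direction of the gene) are shown because these were the 2 genes that rose together. Capitals mark AGGAAG, the core bound by ETS factors, on either strand, so that a match on the opposite strand reads CTTCCT.
Stab1 (chr14:31168592-31168891, minus strand): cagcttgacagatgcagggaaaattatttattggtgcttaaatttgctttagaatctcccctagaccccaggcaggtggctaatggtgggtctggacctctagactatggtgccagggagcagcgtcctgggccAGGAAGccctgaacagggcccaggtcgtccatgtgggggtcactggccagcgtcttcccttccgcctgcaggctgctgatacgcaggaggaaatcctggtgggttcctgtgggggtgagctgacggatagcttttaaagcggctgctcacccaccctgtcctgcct
Stab2 (chr10:87007893-87008192, minus strand): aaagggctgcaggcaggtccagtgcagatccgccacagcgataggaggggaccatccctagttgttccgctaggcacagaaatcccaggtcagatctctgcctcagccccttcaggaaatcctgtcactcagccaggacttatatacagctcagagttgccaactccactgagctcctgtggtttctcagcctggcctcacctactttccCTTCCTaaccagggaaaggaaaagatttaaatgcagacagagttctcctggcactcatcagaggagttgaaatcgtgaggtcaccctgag
The AGGAAG of *Stab1* began 116 bases before the start, on the strand of the gene, and that of *Stab2* 40 bases before it, on the opposite strand. Such a match is frequent, present in 35.1% of 27025 mouse promoter windows of this length, and in 4 of the 8 windows found for the 10 genes, which also included *Egfr* and *Xrn2*. The letters say nothing of whether a factor binds there. The *Stab1* window held 7 CpG dinucleotides and that of *Stab2* 4, against a median of 7 over all windows. AGATAA, a core of the erythroid and endothelial zinc finger factors of the GATA family, was in 0 of the 8 windows and in 11.4% of all windows on either strand. The core promoter box spelled TATAAA was in 0 of the 8 windows and in 14.2% of all.

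*Stab1* was at 4.50, 4.27 and 4.07 CPM in the CON ASO group (replicates 1, 2 and 4; mean 4.28 ± 0.216, SD, n = 3). The MMAB ASO livers were at 7.85, 9.12 and 8.20 CPM (mean 8.39 ± 0.655, SD, n = 3). The CON ASO livers were within 1.11-fold of each other and the lowest MMAB ASO liver stood well above the highest of them, so the groups were far apart relative to their spread. The log2 fold change was 0.97 (SE 0.15 in limma, 95% interval 0.64 to 1.29, adjusted p = 0.00492). Leaving out any 1 library kept it past the threshold, with log2 fold changes of 0.91 to 1.02 and adjusted p-values of 0.00565 to 0.0281. The exact two-sided permutation p was 0.1, the lowest possible with 3 livers in each group. The annotation of *Stab1* shares 112 bases with *Nt5dc2* on the other strand, a gene at 1.52, 1.73 and 2.14 CPM in CON ASO livers and 2.62, 2.55 and 2.35 CPM in MMAB ASO livers, and reads of that stretch cannot be assigned with certainty.

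*Stab2* was at 8.04, 4.73 and 4.80 CPM in the CON ASO group (replicates 1, 2 and 4; mean 5.86 ± 1.89, SD, n = 3) and at 10.8, 10.5 and 9.20 CPM in the MMAB ASO group (replicates 1, 2 and 4; mean 10.2 ± 0.862, SD, n = 3). The groups did not overlap, but CON ASO replicate 1 lay nearer to the lowest MMAB ASO liver than to the other CON ASO livers. The log2 fold change was 0.84 (SE 0.20 in limma, 95% interval 0.40 to 1.28, adjusted p = 0.0411, exact two-sided permutation p = 0.1). The call rested on the choice of libraries. Without CON ASO replicate 1 it passed at an adjusted p of 0.00804 in limma with a log2 fold change of 1.09. Without CON ASO replicates 2 or 4 the adjusted p was 0.0654 or 0.158, and without MMAB ASO replicates 1, 2 or 4 it was 0.0941, 0.0903 or 0.0889. The direction was the same in every one of these fits, at 0.71 to 1.09. The genes of the table that overlap *Stab2* on the other strand were at 0.194 CPM or less. The adjusted p of *Stab2* was also above 0.05 with no filter on low values (0.0895) and with a variance prior that did not follow the mean (0.0808).

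**Figure D2:**
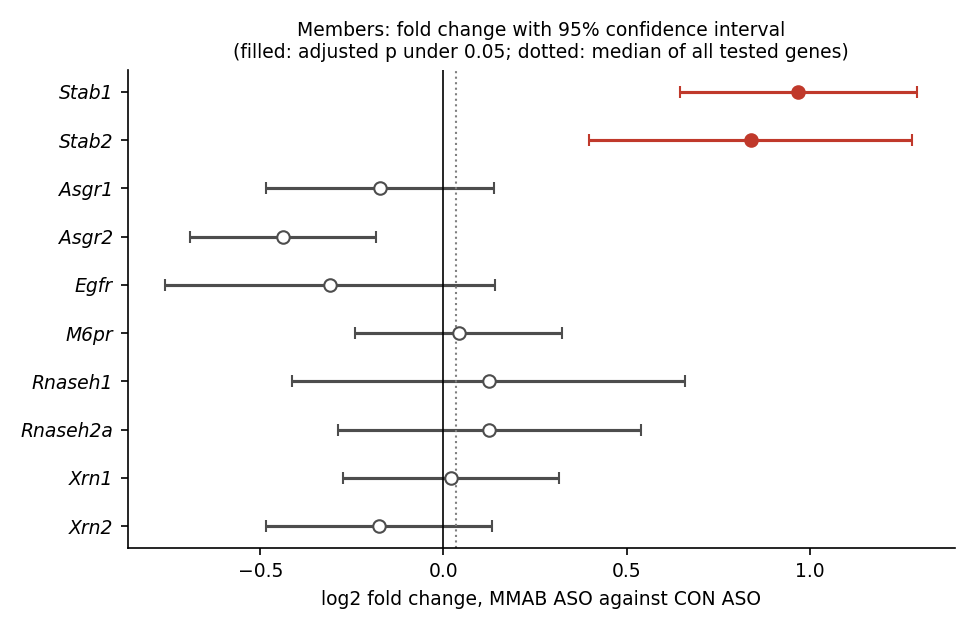
Log2 fold change of each of the 10 genes, MMAB ASO against CON ASO, with its 95% interval from limma on 3 livers in each group. Filled red points passed an adjusted p of 0.05, and the dotted line is the median of all tested genes at 0.03. The intervals of *Stab1* (0.64 to 1.29) and *Stab2* (0.40 to 1.28) lie above 0, that of *Asgr2* (-0.69 to -0.18) lies below 0 without passing the adjusted test, and the other 7 include 0.

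Other markers of the sinusoidal endothelium rose in the same livers. Of 16 such markers, which did not include the stabilins, 9 rose at an adjusted p under 0.05 in limma, all 16 had a positive log2 fold change, and the median was 0.86. Of all 11565 tested genes, 1.87% were called higher and 6429 had a positive log2 fold change, with a median of 0.03. The summed level of the 16 markers was 64.6 to 95.6 CPM in CON ASO livers and 136 to 158 CPM in MMAB ASO livers, and no marker was at 0 in any library. *Clec4g*, a lectin of these cells, was at 8.01, 5.79 and 6.00 CPM in the CON ASO group (replicates 1, 2 and 4) and at 17.4, 14.8 and 14.5 CPM in the MMAB ASO group (replicates 1, 2 and 4). Of 9 stellate cell markers tested, 5 rose, with a median of 0.61 and sums of 80.0 to 109 CPM in CON ASO and 135 to 166 CPM in MMAB ASO livers. Of 10 Kupffer cell markers tested, 2 rose and 9 had a positive log2 fold change, with a median of 0.86. The exception was *Marco*, a macrophage scavenger receptor, at 15.7, 0.813 and 0.805 CPM in CON ASO livers and 0.426, 0.134 and 0.380 CPM in MMAB ASO livers, which did not overlap (log2 fold change -2.96, adjusted p = 0.108 in limma). Its log2 fold change was -1.54 without CON ASO replicate 1, and of the fits without 1 library it passed in that without CON ASO replicate 2 alone (adjusted p = 0.0120 in limma). The sums of all 12 listed were 28.4 to 102 CPM in CON ASO livers and 62.8 to 108 CPM in MMAB ASO livers, with CON ASO replicate 1 at 102 CPM and the other CON ASO livers at 28.4 and 29.0 CPM. The marker calls depended on single libraries. Of the 6 fits without 1 library, a called endothelial marker passed in 2 to 6, a stellate one in 1 to 6 and a Kupffer one in 2 to 3. Among the stellate and Kupffer cell markers none was at 0 in any library either, and their part in the stabilin values was not tested. In whole liver, more cells of a type and more RNA per cell cannot be told apart.

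The stabilins were then set against the endothelial markers within each library, as the log2 level of the gene minus the mean log2 level of the 16 markers. For *Stab1* this difference was 0.06, 0.31 and 0.55 in CON ASO replicates 1, 2 and 4 and 0.24, 0.43 and 0.53 in MMAB ASO replicates 1, 2 and 4. The groups overlapped, and the change of 0.09 was smaller than the SD of the CON ASO livers (0.24; exact two-sided permutation p = 0.7, adjusted p = 1 over 7 such comparisons). For *Stab2* the difference was 0.90, 0.46 and 0.79 in CON ASO livers and 0.70, 0.63 and 0.69 in MMAB ASO livers, a change of -0.04 (exact two-sided permutation p = 0.8, adjusted p = 1). *Stab1* relative to *Stab2* changed by 0.13 with overlapping groups (exact two-sided permutation p = 0.7, adjusted p = 1). Without CON ASO replicate 1 the 3 changes were -0.03, 0.06 and -0.08, each with the opposite sign. Both stabilins rose by an amount near the median of the endothelial markers, and these p-values do not show that they rose by the same amount. That median, 0.86, was also that of the tested Kupffer cell markers, and the stellate markers had one of 0.61. The stabilins were not set against those 2 lists.

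**Figure D3:**
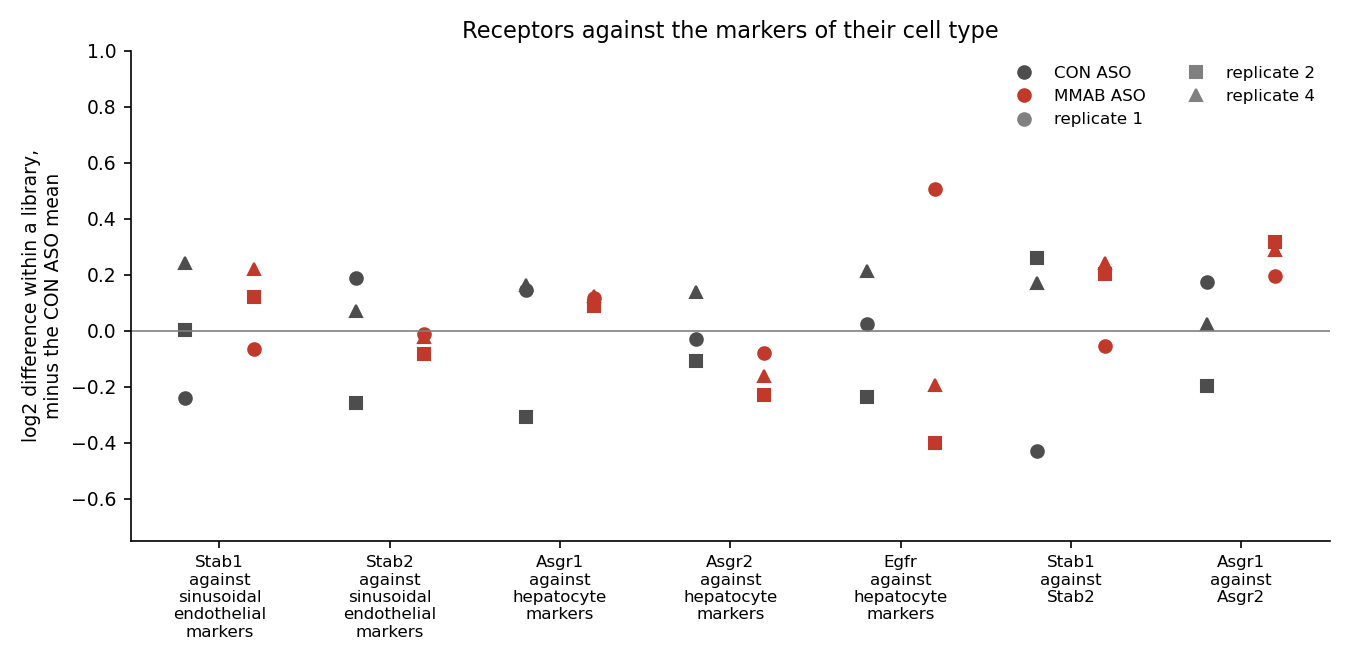
Log2 level of each receptor minus a reference in the same library, shifted so that the CON ASO mean is 0, with 1 point per liver (grey CON ASO, red MMAB ASO, shapes by replicate number). References are the mean log2 level of 16 sinusoidal endothelial or 15 hepatocyte markers, or the paired receptor gene. The groups overlap in the first 6 comparisons, and for *Asgr1* against *Asgr2* the MMAB ASO livers all lie above the CON ASO livers.

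The genes whose values over the 6 livers were most like those of *Stab1* were *Elk3*, *Gdf2* and *Wdr44*, with root mean square differences of 0.07, 0.09 and 0.09 between centred log2 levels. *Elk3* encodes an ETS factor and *Gdf2* the ligand BMP9. Those most like *Stab2* were *Dkk3*, *Mylip* and *Adgrf5*, at 0.08, 0.10 and 0.10. These are descriptions of 6 livers that share a treatment contrast, in which any gene that rose by a similar amount comes near.

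*Asgr1* and *Asgr2* encode the 2 subunits of the asialoglycoprotein receptor, a hepatocyte lectin that clears glycoproteins with exposed galactose. They lie near each other on chromosome 11 of GRCm38, *Asgr1* from 70054085 to 70057894 and *Asgr2* from 70092644 to 70106187, on the plus strand. *Asgr1* was at 237, 168 and 207 CPM in the CON ASO group (replicates 1, 2 and 4; mean 204 ± 34.4, SD, n = 3) and at 183, 186 and 169 CPM in the MMAB ASO group (replicates 1, 2 and 4; mean 179 ± 8.99, SD, n = 3). The CON ASO livers enclosed all the MMAB ASO livers. The log2 fold change of -0.17 (SE 0.14 in limma, 95% interval -0.48 to 0.14) missed the threshold at an adjusted p of 0.590 from limma (exact two-sided permutation p = 0.4). *Aqp9*, *Dera* and *Adh5* were most like it over the 6 livers, with root mean square log2 differences of 0.02, 0.02 and 0.03. *Aqp9*, an aquaporin that carries glycerol into hepatocytes, had a log2 fold change of -0.19.

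*Asgr2* was at 82.1, 75.5 and 79.6 CPM in the CON ASO group (replicates 1, 2 and 4; mean 79.1 ± 3.35, SD, n = 3) and at 62.7, 58.4 and 54.3 CPM in the MMAB ASO group (replicates 1, 2 and 4; mean 58.5 ± 4.24, SD, n = 3). Every MMAB ASO liver was below every CON ASO liver, as for 22.7% of all tested genes in either direction. The log2 fold change was -0.44 (SE 0.12 in limma, 95% interval -0.69 to -0.18), and the adjusted p of 0.0604 from limma missed the threshold. It passed only with median-ratio scaling, at -0.46 and an adjusted p of 0.0311 from limma, and not once when a single library was left out (adjusted p 0.0833 to 0.269). Hepatocyte markers mostly had lower values in the same livers, with 14 of 15 log2 fold changes negative and a median of -0.25. Of all 11565 tested genes, 6429 were positive, with a median of 0.03. Few of these markers stood out singly: 1 of the 15 was called lower in limma and 14 were not called. The groups did not overlap for 5 of the 15, against 22.7% of all tested genes. Set against the mean log2 level of those 15 markers, *Asgr2* changed by -0.16 with overlapping groups (exact two-sided permutation p = 0.2, adjusted p = 0.7 over 7) and *Asgr1* by 0.11 (exact two-sided permutation p = 1, adjusted p = 1).

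The subunits of the receptor were also set against each other within each library. The log2 level of *Asgr1* minus that of *Asgr2* was 1.53, 1.15 and 1.38 in CON ASO replicates 1, 2 and 4 and 1.55, 1.67 and 1.64 in MMAB ASO replicates 1, 2 and 4. All 3 MMAB ASO livers were above all 3 CON ASO livers, with CON ASO replicate 1 at 1.53 next to MMAB ASO replicate 1 at 1.55. The change of 0.27 had an exact two-sided permutation p of 0.1, the smallest this design allows, and an adjusted p of 0.7 over the 7 comparisons. Per kb of exon, the mean level of *Asgr1* was 2.55 times that of *Asgr2* in CON ASO livers and 3.03 times in MMAB ASO livers.

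*Egfr* and *M6pr* encode the epidermal growth factor receptor and the cation-dependent mannose 6-phosphate receptor. Work in human cells has linked both proteins to the passage of phosphorothioate oligonucleotides through endosomes. *Egfr* (chromosome 11, 16752203 to 16918158, plus strand, GRCm38) was at 259, 210 and 255 CPM in the CON ASO group (replicates 1, 2 and 4) and at 286, 158 and 162 CPM in the MMAB ASO group (replicates 1, 2 and 4). MMAB ASO replicate 1 was the highest of all 6 livers and the other MMAB ASO livers were the lowest, with group means of 241 ± 27.3 and 202 ± 73.2 CPM (SD, n = 3). The log2 fold change of -0.31 (SE 0.21 in limma, 95% interval -0.76 to 0.14) missed the threshold with an adjusted p of 0.479, and ran from -0.59 to -0.16 as single libraries were left out. Relative to the hepatocyte markers, the change was -0.03 (exact two-sided permutation p = 1, adjusted p = 1 over 7).

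The antisense gene *Egfros* overlaps *Egfr*, and its levels were 1.18, 1.70 and 1.55 CPM in the CON ASO group (replicates 1, 2 and 4) and 4.36, 0.715 and 2.12 CPM in the MMAB ASO group (replicates 1, 2 and 4). It was highest in the liver in which *Egfr* was highest, and whether reads were assigned by strand is not given in the sources used here. *M6pr* (chromosome 6, 122308720 to 122317680, plus strand) was at 62.7, 54.0 and 53.8 CPM in CON ASO livers and at 55.4, 66.4 and 54.0 CPM in MMAB ASO livers. Its groups overlapped throughout, with a log2 fold change of 0.04 (SE 0.13 in limma, 95% interval -0.24 to 0.32, adjusted p = 0.914). The upper end of this interval lies below the estimates of both stabilins.

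*Rnaseh1* encodes RNase H1, the enzyme that cuts RNA paired with an antisense oligonucleotide. Its GRCm38 position is 28649602 to 28659589 on chromosome 12, plus strand. Its level was 2.63, 1.52 and 1.78 CPM in the CON ASO group (replicates 1, 2 and 4; mean 1.98 ± 0.580, SD, n = 3) and 2.30, 2.14 and 1.87 CPM in the MMAB ASO group (replicates 1, 2 and 4; mean 2.10 ± 0.220, SD, n = 3). The CON ASO livers spread 1.73-fold and enclosed the MMAB ASO livers. The log2 fold change was 0.12 (SE 0.25 in limma, adjusted p = 0.854, exact two-sided permutation p = 0.6), and its 95% interval from -0.41 to 0.66 is the widest of the 10 genes. An estimated 83 to 120 reads per library stood behind these values, the fewest of the 10. The genes most like it over the 6 livers were *E2f3*, *Znrf3* and *Gm45716*, each at a root mean square log2 difference of 0.05.

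*Rnaseh2a* encodes the catalytic subunit of RNase H2, which removes ribonucleotides from DNA and is not the enzyme on which antisense oligonucleotides rely. Its GRCm38 position is 84956610 to 84969767 on chromosome 8, minus strand. The livers measured 3.80, 2.95 and 3.05 CPM in the CON ASO group (replicates 1, 2 and 4) and 3.05, 3.75 and 3.88 CPM in the MMAB ASO group (replicates 1, 2 and 4), from an estimated 150 to 174 reads. The groups overlapped, and the log2 fold change of 0.13 (SE 0.19 in limma, 95% interval -0.29 to 0.54) had an adjusted p of 0.796 from limma. Its annotation shares 181 bases with *Prdx2*, a peroxiredoxin on the other strand that was at 28.8 to 37.8 CPM. It also shares 1756 bases with *Gm49661*, a protein-coding gene on the same strand for which no level was given. Reads of these shared stretches cannot be assigned with certainty.

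Neither of the exonucleases that digest RNA from its 5′ end passed the test. *Xrn1* (chromosome 9, 95954760 to 96057803, plus strand) was at 17.9, 15.0 and 14.0 CPM in the CON ASO group (replicates 1, 2 and 4) and at 15.5, 16.3 and 15.5 CPM in the MMAB ASO group (replicates 1, 2 and 4). *Xrn2* (chromosome 2, 147012996 to 147078000, plus strand) was at 30.3, 25.8 and 22.9 CPM in CON ASO livers and at 24.2, 24.98 and 20.6 CPM in MMAB ASO livers. Both had overlapping groups, with CON ASO replicate 1 the highest liver for each. *Xrn1* had a log2 fold change of 0.02 (SE 0.13 in limma, 95% interval -0.27 to 0.31, adjusted p = 0.962). That of *Xrn2* was -0.18 (SE 0.14 in limma, 95% interval -0.48 to 0.13, adjusted p = 0.576). Per kb of exon, the nuclear enzyme's gene was at 6.62 CPM per kb in CON ASO livers and the cytoplasmic enzyme's at 0.842. The annotated exons joined came to 3981 bases for *Xrn2* and 18585 for *Xrn1*. Undivided, their CON ASO means were 26.4 and 15.7 CPM, so much of the gap per kb comes from the length used.

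The 5 wider lists of genes around the same route held receptors, sorting proteins, RNA decay factors, DNA nucleases and oligonucleotide-binding proteins. Of 72 genes listed, 69 were in the table and 66 were tested, of which 1 was called higher and 1 lower, against 4.09% of all tested genes called in either direction. The median log2 fold change of the 66 was 0.06. The nuclease gene *Dnase1l3* was higher and *Pspc1*, a paraspeckle gene, was lower. The counts of calls depended on single libraries: without CON ASO replicate 1 there were 6 calls, all higher (*Msr1*, *Mrc1*, *Cd163*, *Exosc10*, *Pld3* and *Dnase1l3*), without CON ASO replicate 4 there were 0, and without MMAB ASO replicate 1 or 4 there was 1, *Dnase1l3*. With scaling to the protein-coding sum there were 4, all higher (*Mrc1*, *Exosc10*, *Pld3* and *Dnase1l3*).

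**Figure D4:**
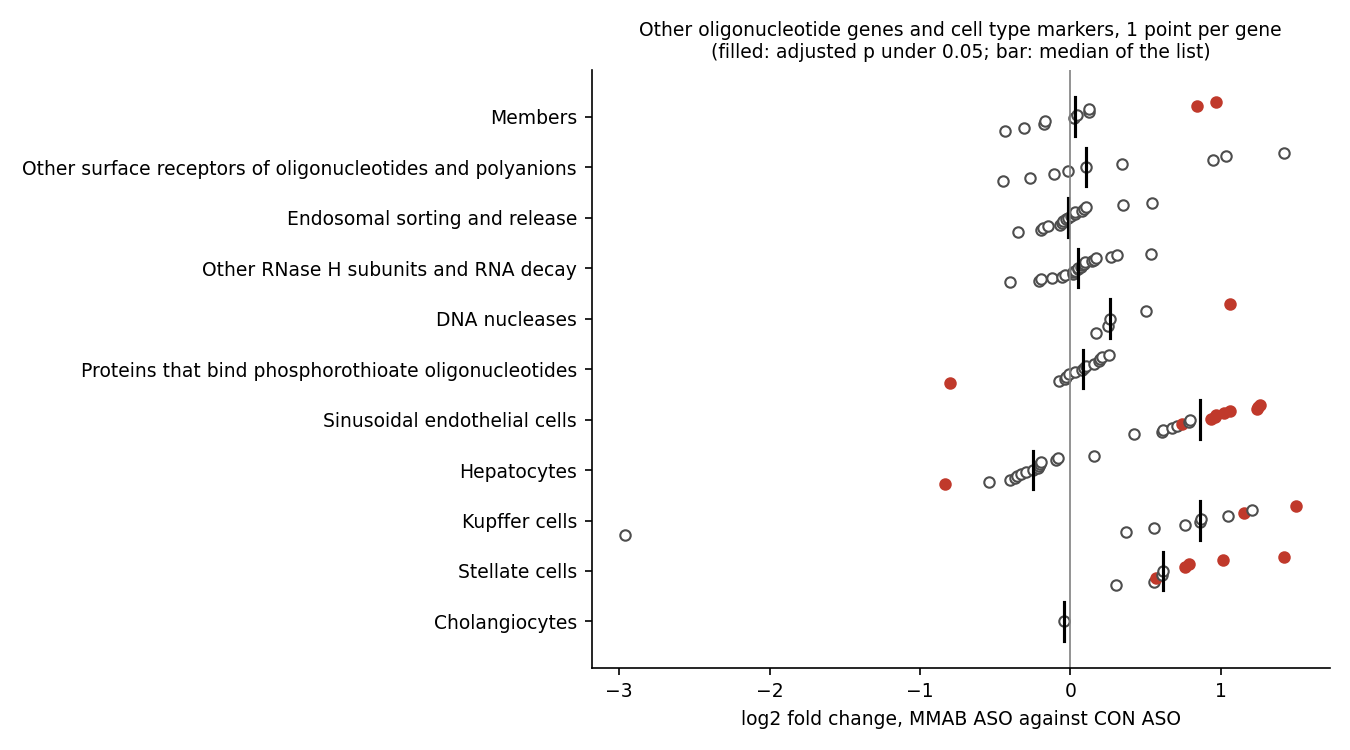
Log2 fold changes, MMAB ASO against CON ASO, of the 10 genes (top line, named members), of the 5 wider lists and of the markers of 5 cell types, with 1 point per tested gene. Filled red points passed an adjusted p of 0.05 in limma and black bars are list medians. The 2 filled points of the top line are *Stab1* and *Stab2*, and the lists of sorting and RNA decay genes lie around 0 with medians of -0.02 and 0.05. The sinusoidal endothelial, Kupffer and stellate cell markers lie mostly to the right, with medians of 0.86, 0.86 and 0.61.

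Of 9 other surface receptors of oligonucleotides and polyanions that were tested, 0 passed at an adjusted p under 0.05 in limma, 3 had an unadjusted p under 0.05 (17.8% of all tested genes did), and the median log2 fold change was 0.10. The most abundant were *Lrp1*, an endocytic receptor of many ligands, at 0.10 (adjusted p = 0.764 from limma), and *Scarb2*, a lysosomal membrane protein, at -0.01 (adjusted p = 0.975). *Lrp1* was at 354, 306 and 313 CPM in CON ASO livers and 315, 383 and 347 CPM in MMAB ASO livers, with overlapping groups. The 3 with an unadjusted p under 0.05 are a description only, chosen after their values were seen. All are scavenger or lectin receptors of macrophages, with *Mrc1* also on liver endothelium. Such receptors did not all rise. Of the 9 tested, 5 had a positive log2 fold change, and *Scara5*, *Colec12* and *Scarb1* were at -0.45, -0.27 and -0.11. *Marco*, named above among the Kupffer cell markers, was at -2.96. *Mrc1* was at 9.44, 5.23 and 4.31 CPM in CON ASO livers and 12.8, 12.2 and 9.73 CPM in MMAB ASO livers. *Msr1* was at 1.95, 1.44 and 1.01 CPM in CON ASO livers and 3.49, 2.19 and 3.15 CPM in MMAB ASO livers. *Cd163* was at 3.94, 1.20 and 1.45 CPM in CON ASO livers and 7.66, 2.93 and 5.86 CPM in MMAB ASO livers. Each was highest among CON ASO livers in replicate 1, the liver in which the Kupffer cell markers summed to 102 CPM. Their log2 fold changes were 0.95, 1.03 and 1.42, with adjusted p-values of 0.0556, 0.0644 and 0.0918 from limma. The part of the cell type markers in these values was not tested.

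Of 17 tested genes for endosomal sorting and release, 0 passed in limma, 1 had an unadjusted p under 0.05 (against 17.8% of all tested genes), and the median log2 fold change was -0.02. The most abundant were *Lamp1*, a lysosomal membrane glycoprotein, at -0.18 (adjusted p = 0.519 from limma), and *Rab7*, a GTPase of late endosomes, at -0.15 (adjusted p = 0.597). *Lamp1* was at 408, 336 and 349 CPM in CON ASO livers and 320, 338 and 302 CPM in MMAB ASO livers. Of 21 tested genes for the other RNase H2 subunits and RNA decay, 0 passed in limma, 1 had an unadjusted p under 0.05 (against the same 17.8%), and the median was 0.05. The most abundant were *Hbs1l*, which helps to rescue ribosomes stalled at cut or broken mRNA ends, at -0.12 (adjusted p = 0.725 from limma), and *Skiv2l*, a helicase that feeds RNA to the cytoplasmic exosome, at 0.07 (adjusted p = 0.832).

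Of 5 DNA nucleases tested, *Dnase1l3* was the 1 called, against 4.09% of all tested genes. The median log2 fold change was 0.27, against 0.03 over all tested genes. *Dnase1l3* encodes a secreted nuclease that digests DNA in chromatin and microparticles. It was at 7.30, 4.28 and 5.79 CPM in the CON ASO group (replicates 1, 2 and 4) and at 13.0, 12.5 and 10.1 CPM in the MMAB ASO group (replicates 1, 2 and 4). The groups did not overlap, and the log2 fold change was 1.06 (SE 0.20 in limma, adjusted p = 0.0124), past the threshold whichever library was left out, except without CON ASO replicate 4 (adjusted p = 0.0641). This gene is known to be expressed by macrophages and by liver endothelium. The endothelial markers rose in the same livers, with sums of 136 to 158 CPM against 64.6 to 95.6 CPM. The sums of the Kupffer cell markers overlapped, at 62.8 to 108 CPM against 28.4 to 102 CPM. The part of these cell types in the rise of *Dnase1l3* was not tested.

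Of 14 proteins known to bind phosphorothioate oligonucleotides, *Pspc1* was the 1 called, against 4.09% of all tested genes. The median log2 fold change was 0.09, against 0.03 over all tested genes. *Pspc1* was at 4.24, 3.21 and 3.53 CPM in the CON ASO group (replicates 1, 2 and 4) and at 2.42, 1.78 and 2.10 CPM in the MMAB ASO group (replicates 1, 2 and 4). The groups did not overlap, and the log2 fold change was -0.80 (SE 0.20 in limma, adjusted p = 0.0492). As single libraries were left out, it held once: the adjusted p was 0.0459 without CON ASO replicate 2, 0.120 without CON ASO replicate 1, 0.134 without CON ASO replicate 4, and 0.0595, 0.136 and 0.151 without MMAB ASO replicates 1, 2 and 4. For its partners in paraspeckles, named here for that relation, the log2 fold changes were 0.09 for *Nono* (adjusted p = 0.758 from limma) and 0.10 for *Sfpq* (adjusted p = 0.724), neither past the threshold.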

How the data were processed

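Liver RNA-seq values were analysed as the authors deposited them, in 1 table whose 6 value columns were matched to the samples by name. According to the labels and the methods of the study, ribosomal RNA was depleted, reads were aligned with STAR to the mouse genome in PartekFlow, and Partek E/M was used to estimate abundance. The authors deposited log2 values of CPM (scaling to the total count of a library), after adding 0.0001. Read totals were estimated here at 44.7 to 55.4 M per library. For this, the lowest of the most frequent values above a library's floor was taken as the worth of 1 read. The estimated abundances behind the values need not be whole, so no test for counts was run. The small RNA kit named for these libraries is at odds with a table of full-length genes, the sources differ on the instrument, and strand use in counting is not given in the sources used here.

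Genes were kept where the 6 libraries averaged 1 CPM or more, and limma 3.58.1 (R 4.3.3) compared the groups without covariates, with its trended variance prior, and with Benjamini-Hochberg adjustment over all 11565 genes at 0.05. Fold changes are on the log2(CPM + 0.0001) scale. For single values an exact two-sided permutation test was used, which cannot go below p = 0.1 here. The labels do not tie samples to named mice, so p-values measure the spread between these samples. Levels per kb used the union of exons in GENCODE M21 (GRCm38), in which 93.7% of 20430 symbols had the table's coordinates. Spreadsheet conversion had turned 20 symbols into dates, and these were named by coordinates. Promoter windows came from RefSeq (GRCm38.p6), which matched 8 of the 10 genes.

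The 10 genes, the gene lists and the tests were chosen with earlier results of these data known. The genes named are all 10, *Mmab*, from each wider list those with an adjusted p under 0.05 or else the 2 with the highest mean CPM, and the 3 genes most like *Stab1*, *Stab2*, *Asgr1* and *Rnaseh1*. Outside that rule, and after their values were seen, *Mrc1*, *Msr1*, *Cd163*, *Scara5*, *Colec12*, *Scarb1*, *Exosc10*, *Pld3*, *Nono*, *Sfpq*, *Clec4g*, *Marco* and genes overlapping the 10 were named. *Olr1*, *Vps28* and *Exosc6* were not analysed here, and the result of 1 hepatocyte marker is not reported here. *Ager*, *Itgam* and *Pld4* were below the filter, as were the Kupffer cell markers *Timd4* and *Folr2*, the stellate marker *Ngfr* and 4 of 5 cholangiocyte markers, whose sums were 7.56 to 14.6 CPM in CON ASO livers and 10.0 to 13.7 CPM in MMAB ASO livers. Alternatives were pseudocounts of 0.1 and 1, no filter or a mean of 5 CPM, 3 other scalings, no trend, the replicate number as a block, and leaving out each library. The fit was tested on simulated data. Figures were drawn with Python 3.11.15 and matplotlib 3.10.9.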

Additional observations from a re-analysis of the deposited data

How the results depend on the processing

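*Stab1* passed under every alternative run, and *Mmab* under all but the filter at a mean of 5 CPM, which left it out along with *Rnaseh1*, *Rnaseh2a* and *Pspc1*. Calls over all genes numbered 473, against 255 with no filter, 268 with a filter at a mean of 5 CPM, 332 with no trend in the variance prior, 633 with scaling to protein-coding genes, and 157 to 536 as single libraries were left out. Of the 10 genes, 2 were called, against 1 with no filter, 1 with no trend, and 1 to 2 as single libraries were left out, and with median-ratio scaling there were 3. Of the wider lists 2 were called, against 1 with no filter, 1 with the filter at 5 CPM, 4 with scaling to protein-coding genes, and 0 to 6 as single libraries were left out. Values near 0 changed sign. *Rnaseh1* was at -0.00486 with quantile normalization, *Xrn1* at -0.00553 with median-ratio scaling, and *Stab2* against the endothelial markers at 0.026 with a pseudocount of 1. As single libraries were left out, log2 fold changes ran from -0.052 to 0.11 for *M6pr*, -0.046 to 0.35 for *Rnaseh1* and -0.054 to 0.12 for *Xrn1*. Changes against references ran from -0.030 to 0.21 for *Stab1* and -0.17 to 0.055 for *Stab2* against endothelial markers, -0.045 to 0.19 for *Asgr1*, -0.21 to -0.09 for *Asgr2* and -0.30 to 0.16 for *Egfr* against hepatocyte markers, -0.085 to 0.26 for *Stab1* against *Stab2*, and 0.17 to 0.35 for *Asgr1* against *Asgr2*. The cause of these changes was not tested.

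Samples with the same replicate number did not deviate together (correlations -0.02, 0.05 and -0.01 over genes), so the numbers were not taken as pairs. With the replicate number as a block, 430 genes were called, 2 of the 10 and 3 of the wider lists, *Mrc1*, *Cd163* and *Dnase1l3*. With 3 livers in each group and 83 to 174 estimated reads a library behind *Rnaseh1* and *Rnaseh2a*, changes as large as 0.66 and 0.54 on the log2 scale stay within their intervals.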
